A study of Mus musculus with 4 samples.

Results

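Malat1 (ENSMUSG00000092341) and Neat1 (ENSMUSG00000092274) are long noncoding RNAs that stay in the nucleus. They were found by gene symbol and were 2 of the 32285 genes listed. Their levels were described in single-cell RNA-Seq libraries of whole mouse kidney, by cell class, by diet and genotype, and by the mitochondrial share and depth of each droplet.

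The mice were C3H males with or without Sweet Pee (SP), a missense mutation in Slc5a2, the gene of the SGLT2 glucose cotransporter of the proximal tubule. SP mice were homozygous and WT mice carried the normal gene. From 10 weeks of age they received either normal diet (ND) or a high-fat diet (HFD, 60% of calories from fat) for 8 weeks, and kidneys were taken at 18 weeks. This gave WT mice on ND or HFD and SP mice on ND or HFD, each with 1 library, so differences between diets or genotypes had no replicate error and were given without a test. The mutation is present in every cell of SP mice from conception, kidneys were dissociated with enzymes before capture, and the number of mice behind each library was not given in the labels. Where 4 values follow each other in library order, both WT libraries come before both SP libraries, and ND comes before HFD.

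Malat1 collects in nuclear speckles, bodies rich in splicing factors, and Neat1 is the scaffold on which paraspeckles form. Neat1 has a short form that ends in a poly(A) tail and a long form that does not, and the long form is the one needed for paraspeckles. Like the long form of Neat1, the end of Malat1 is released by cleavage and is protected by a triple helix instead of a poly(A) tail. Since both RNAs remain in the nucleus, droplets that hold cytoplasm alone contain little of either.

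The libraries captured RNA by its A-rich stretches, so the 3′ ends are the stretches that bear on these counts. Sequences were read from the GRCm38 genome with GENCODE vM21 transcripts, and both genes lie on the minus strand of chromosome 19. Malat1-201 is a single exon of 6983 bases at chr19:5795690-5802672. Neat1-201, the long form, is a single exon of 20771 bases at chr19:5824708-5845478, and Neat1-202, the short form, has 2 exons and 3004 bases at chr19:5842307-5845476. All stretches shown lie in exons. The first sequence is the Malat1 stretch at chr19:5795948-5796039, with the 16 bases shared with Neat1 and a run of 12 A in capitals. The others are the annotated ends of Neat1-201 at chr19:5824708-5824787, with the same 16 bases in capitals, and of Neat1-202 at chr19:5842307-5842386, with the AATAAA polyadenylation signal in capitals.
Malat1-201: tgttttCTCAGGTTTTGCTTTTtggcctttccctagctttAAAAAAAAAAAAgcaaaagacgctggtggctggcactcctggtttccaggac
Neat1-201: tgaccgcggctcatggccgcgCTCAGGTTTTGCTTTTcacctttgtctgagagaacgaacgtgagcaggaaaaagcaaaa
Neat1-202: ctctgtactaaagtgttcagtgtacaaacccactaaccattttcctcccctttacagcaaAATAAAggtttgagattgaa

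The run of 12 A ended 298 bases before the annotated end of Malat1-201, and a run of that length was found in the last 400 bases of 1.97% of 16980 lncRNA transcripts. The longest run of A in Neat1-201 had 7 bases and lay 11226 bases before its end. AATAAA stood 14 bases before the end of Neat1-202, and 29.8% of lncRNA transcripts held it in their last 40 bases. It was also present in Malat1-201, 16 bases before its annotated end. The stretch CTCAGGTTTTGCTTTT was picked as the longest one shared by the Malat1-201 and Neat1-201 stretches shown. It was present in 2 of 16980 lncRNA transcripts (0.0118%), Malat1-201 and Neat1-201, which that choice had fixed. The count is a description and no test of the pair. All motifs were searched on the transcript strand only. Counts of Neat1 did not separate its forms. Annotated small genes overlap both loci, and reads they share with Malat1 or Neat1 could not be told apart.

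The libraries held 13229 to 16385 barcodes, and 32.7% to 49.8% of barcodes had 50% or more mitochondrial unique molecular identifiers (UMIs, each standing for 1 captured RNA molecule). After the study's limits on detected genes and mitochondrial share and removal of likely doublets, 6389 to 9924 cells were kept per library. Pairs of libraries shared 54 to 77 barcodes (0.36% to 0.522% of a library), of which 10 to 34 were kept in both. Cells were clustered with Malat1 and Neat1 left out, and clusters were named X-like from marker genes. Mat2a and the lists of other nuclear-retained noncoding RNAs, detained-intron mRNAs, paraspeckle, nuclear speckle and dissociation stress genes were left out of the clustering as well. Levels below are in CPM, the UMIs of a gene in every 1000000 non-mitochondrial UMIs. They are not per length, so Malat1 was not compared with Neat1.

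Malat1 was the second most abundant non-mitochondrial RNA of kept cells in every library. It reached 39228 CPM in WT-ND, 33252 CPM in WT-HFD, 37456 CPM in SP-ND and 32420 CPM in SP-HFD, or 3.24% to 3.92% of non-mitochondrial UMIs. Both HFD libraries lay below both ND libraries. Neat1 was at 778 CPM in WT-ND, 862 CPM in WT-HFD, 1088 CPM in SP-ND and 934 CPM in SP-HFD, and ranked between 104 and 169 among genes. Both SP libraries lay above both WT libraries. How many other genes fell into either of these orders was not counted, so both orders are descriptions of 4 libraries. By class, Neat1 was higher in SP-HFD than in WT-HFD in only 3 of 13. The part of cell mix in the pooled order was not tested. At least 1 Malat1 UMI was present in 99.7% to 99.9% of kept cells, and at least 1 Neat1 UMI in 61.7% to 69.6%. Globin-rich barcodes, intended as a background without a nucleus, numbered only 1 to 3 per library, so the contribution of free RNA was not tested.

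The first question was which kidney cells held most of each RNA. Malat1 was highest in principal cell-like cells, the cells of the collecting duct that take up sodium and water, and, by geometric mean, lowest in B cell-like cells, which ranked 11 to 13 of 13 classes. In principal cell-like cells it was at 61383 CPM in WT-ND, 86787 CPM in WT-HFD, 59776 CPM in SP-ND and 75266 CPM in SP-HFD. These cells ranked first of 13 classes in all 4 libraries, and their range did not overlap that of the next class. Fibroblast-like cells, with 7 to 15 cells per library, were not ranked. Intercalated cell-like cells, the acid-base cells of the collecting duct, came second with a geometric mean of 38309 CPM. Proximal tubule-like (PT-like) cells, which reabsorb most of the filtered glucose, had a geometric mean of 37808 CPM and values of 40497, 36291, 35955 and 38669 CPM in library order. Their highest library exceeded their lowest by 1.13-fold, the narrowest spread of the 13 classes. Mesangial or smooth muscle cell-like cells (34877 CPM) and inner medullary limb or duct-like cells (34433 CPM) followed with overlapping ranges. Thick ascending limb-like (TAL-like) cells averaged 31334 CPM, podocyte-like cells 29949 CPM, distal convoluted or connecting tubule-like (DCT-like) cells 29170 CPM and endothelial cell-like cells 24964 CPM. Immune cells held least, with 19818 CPM in neutrophil-like, 18958 CPM in T or NK cell-like, 15470 CPM in macrophage or dendritic cell-like and 14181 CPM in B cell-like cells. From the second place down, each class overlapped its neighbour in range.

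Neat1 followed another order. Neutrophil-like cells were highest in all 4 libraries, with 1642 CPM in WT-ND, 3025 CPM in WT-HFD, 2247 CPM in SP-ND and 2820 CPM in SP-HFD, from 41 to 63 cells per library. Principal cell-like cells had a geometric mean of 2091 CPM and reached 2978 CPM in WT-HFD. Their range overlapped that of neutrophil-like cells. It lay only just above that of the class after them, with a lowest library of 1393 CPM against a highest of 1392 CPM. The range of TAL-like cells, up to 1688 CPM, overlapped it. The lead of neutrophil-like over principal cell-like cells within a library was not tested. Inner medullary limb or duct-like (1211 CPM), TAL-like (1161 CPM), podocyte-like (1131 CPM), DCT-like (997 CPM) and intercalated cell-like cells (935 CPM) came next, each overlapping its neighbour. PT-like cells ranked eighth in all 4 libraries at 743 CPM and overlapped neither the class before them nor the one after, macrophage or dendritic cell-like cells at 439 CPM. Their range, up to 880 CPM, did overlap those of DCT-like cells (from 845 CPM) and podocyte-like cells (from 867 CPM). Mesangial or smooth muscle cell-like (357 CPM), T or NK cell-like (277 CPM), endothelial cell-like (257 CPM) and B cell-like cells (181 CPM) were lowest. After thinning each cell to 500 non-mitochondrial UMIs, Neat1 was detected in 22.2% to 31.1% of PT-like cells, 48.0% to 62.3% of principal cell-like cells and 10.8% to 14.7% of endothelial cell-like cells.

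**Figure D1:**
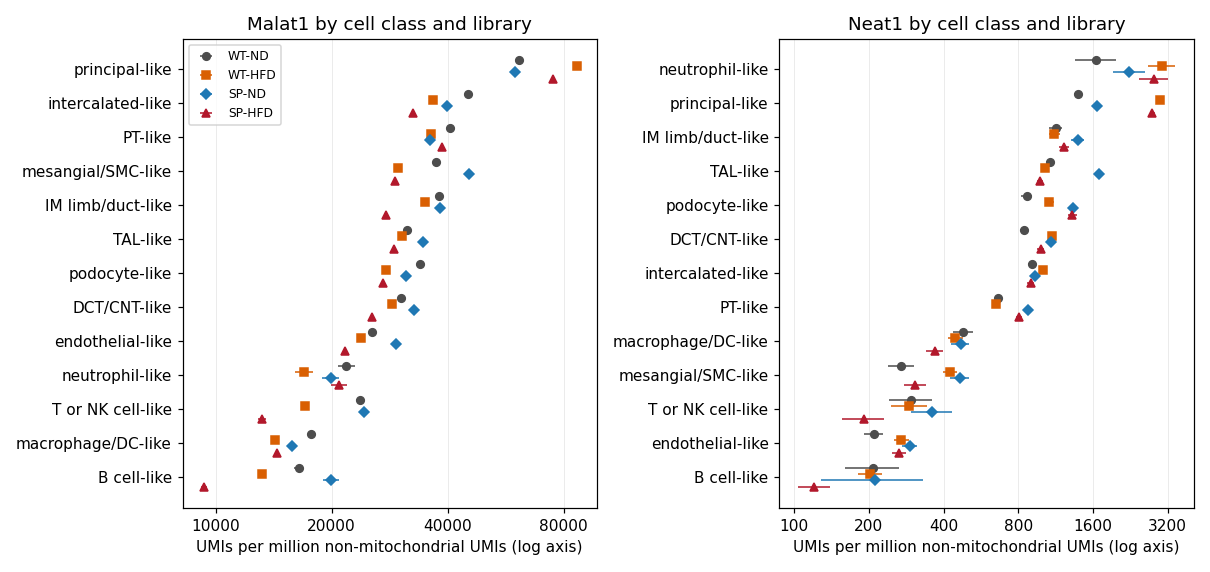
Malat1 (left) and Neat1 (right) in CPM (scaled to non-mitochondrial UMIs) on a log axis, by cell class (rows, ordered by geometric mean) and library (colour and symbol), with 95% Poisson intervals for counting error. Principal cell-like cells lead for Malat1 in all 4 libraries, and neutrophil-like cells lead for Neat1.

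The order of classes was tested for PT-like cells against 4 other classes with edgeR's quasi-likelihood test on UMI sums, with the 4 libraries as samples, over 13514 genes with Benjamini-Hochberg adjustment. Malat1 was higher in PT-like than in TAL-like cells by a log2 fold change of 0.66 (SE 0.0932, edgeR adjusted p = 2.31e-06), in a contrast that called 65.8% of all genes. It was also higher than in DCT-like cells by 0.69 (SE 0.0933, edgeR adjusted p = 1.3e-06), where 64.8% of genes were called. Against endothelial cell-like cells the log2 difference was 1.04 (SE 0.0939, edgeR adjusted p = 1.71e-09), with 76.6% of genes called. Against macrophage or dendritic cell-like cells it was 1.18 (SE 0.0941, edgeR adjusted p = 2.6e-10), with 71.8% of genes called. With so many genes called in each contrast, a call by itself did not set Malat1 apart, and 24.2% to 25.8% of genes had a higher log2 fold change. Without TMM scaling the median gene moved to -0.40, -0.32, -0.49 and 0.18 in these contrasts, in the order given. Higher and lower calls then went from 4312 and 4585 to 2775 and 6764 against TAL-like cells, from 4414 and 4342 to 3068 and 5970 against DCT-like cells, and from 5149 and 5203 to 3800 and 6826 against endothelial cell-like cells. Malat1 stayed higher in PT-like cells in all 4 contrasts, but by 0.27, 0.38, 0.60 and 1.29 in the same order.

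Neat1 rose by 1.96 (SE 0.114, edgeR adjusted p = 1.04e-12) in PT-like over endothelial cell-like cells and by 0.65 (SE 0.112, edgeR adjusted p = 2.4e-05) over macrophage or dendritic cell-like cells. Against TAL-like cells it fell by 0.27 (SE 0.109, edgeR adjusted p = 0.0337). That call was lost without WT-ND (edgeR adjusted p = 0.0651), without WT-HFD (0.0671) and without SP-ND (0.187), and the difference was 0.036 when cells were clustered without integration. Without TMM scaling it was larger, at -0.65 (edgeR adjusted p = 7.46e-05). Against DCT-like cells Neat1 did not pass the test, at -0.11 (SE 0.109, edgeR adjusted p = 0.394). Without TMM scaling it was called there, at -0.42 (edgeR adjusted p = 0.00447).

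Other nuclear-retained noncoding RNAs were split in all 4 contrasts, though their medians lay above those of all genes. Of 12 tested, 6 rose and 2 fell in PT-like against TAL-like cells, and 8 and 3 against DCT-like cells. Against endothelial cell-like cells 6 rose and 2 fell, and against macrophage or dendritic cell-like cells 5 and 3. The medians were 1.17, 1.82, 0.50 and 0.40 in that order, beside medians over all genes of -0.03, -0.01, -0.06 and 0.06. Airn, which silences imprinted genes next to it, was higher in PT-like cells by 3.43 (SE 0.341, edgeR adjusted p = 1.22e-08) against TAL-like cells. Tug1, a widely expressed nuclear RNA, differed by -0.16 (SE 0.103, edgeR adjusted p = 0.186) in the same contrast. Of 15 paraspeckle protein genes, 5 rose and 3 fell against TAL-like cells, with a median of -0.04. Of 16 nuclear speckle protein genes, 4 rose and 3 fell, with a median of -0.06. Against macrophage or dendritic cell-like cells 3 paraspeckle protein genes rose and 7 fell (median -0.26), and 2 nuclear speckle protein genes rose and 10 fell (median -0.52). Against endothelial cell-like cells the counts were 3 and 6 for paraspeckle and 2 and 7 for nuclear speckle protein genes. Against DCT-like cells they were 6 and 6, and 3 and 0. Over all genes, the share called was 65.8% against TAL-like, 64.8% against DCT-like, 76.6% against endothelial cell-like and 71.8% against macrophage or dendritic cell-like cells. In the same order, 4312, 4414, 5149 and 5050 genes rose and 4585, 4342, 5203 and 4657 fell. All 13 dissociation stress genes, immediate early and heat shock genes induced by tissue digestion, were lower in PT-like cells in each of the 4 contrasts, with medians of -2.35 to -5.68. Their part in the differences of Malat1 and Neat1 was not tested.

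The genes whose levels ran most like each RNA were taken over 50 groups of a class in a library, among 3311 genes with a mean of at least 50 CPM. The groups shared 4 libraries and 13 classes, so these correlations are descriptions. For Malat1 they were Pgp (Pearson r = 0.89), Cystm1 (0.86), Csrp2 (0.84), Ubxn2a (0.84) and Cpeb4 (0.83). For Neat1 they were Tob1 (0.85), Ogt, the enzyme that adds O-GlcNAc to proteins (0.83), Cox17 (0.83), Aff1 (0.80) and Lrp10 (0.79). Malat1 and Neat1 correlated with each other at 0.62, which placed Neat1 at position 486 among genes for Malat1.

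The next question was whether diet or genotype went with a different level in PT-like cells, where SGLT2 acts. PT-like cells were 1 cluster, and an unnamed cluster nearest to proximal tubule, with none of its markers among the leading genes, held 928 cells of WT-HFD but 7 to 20 of each other library. PT markers had a mean log2 ratio over other cells of 0.30 in that cluster, beside 3.32 in PT-like cells. Markers of inner medullary limb or duct were at 0.16 there. The other unnamed clusters nearest to proximal tubule had PT marker ratios of 0.21 and -0.74. Pooled Malat1 stood within 35955 to 40497 CPM across the 4 libraries. The median PT-like cell was at 39074, 19051, 31591 and 30139 CPM in library order, so WT-HFD lay far below the others by that measure. The log2 ratio of pooled Malat1 was -0.16 (95% interval -0.16 to -0.15) for WT-HFD against WT-ND and 0.10 (0.10 to 0.11) for SP-HFD against SP-ND. For genotype it was -0.17 on ND and 0.09 on HFD. With all unnamed clusters nearest to proximal tubule added, it was -0.31 for diet in WT, 0.019 for diet in SP, -0.077 for genotype on ND and 0.25 for genotype on HFD. Intervals between libraries are exact and cover counting error only. Neat1 stood at 661 CPM in WT-ND, 651 CPM in WT-HFD, 880 CPM in SP-ND and 805 CPM in SP-HFD, so both SP libraries were again above both WT libraries. Its log2 ratios were -0.02 (-0.07 to 0.02) and -0.13 (-0.18 to -0.07) for diet in WT and SP, and 0.41 (0.37 to 0.46) and 0.31 (0.25 to 0.36) for genotype on ND and HFD. The median over all genes was 0.16 and 0.06 in the genotype comparisons. Each library enters 2 of these comparisons, so they are not independent. Neither RNA reached a 2-fold ratio of pooled levels. Such a ratio, in either direction, was reached by 3.23% of 3035 genes for diet in WT, 5.7% of 3331 for diet in SP, 1.47% of 3206 for genotype on ND and 0.432% of 3006 for genotype on HFD. The 10 PT marker genes had a median log2 ratio of -0.44 for diet in WT and 0.02 in SP. With a mitochondrial limit of 30% the Malat1 ratio turned sign for diet in SP, to -0.23, and for genotype on ND, to 0.037. Without integration 71 PT-like cells in WT-HFD and 41 in SP-HFD were left. Another 851 cells of WT-HFD and 467 of SP-HFD formed a cluster nearest to proximal tubule that the naming thresholds left unnamed. Without those cells, the Malat1 ratios for diet in WT and genotype on HFD turned to 0.62 and -0.092. The Neat1 ratios for diet in WT, diet in SP and genotype on HFD then turned to 1.33, 0.21 and -0.67, the first of them past 2-fold.

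Neat1 was higher in SP-ND than in WT-ND in 12 of 13 classes, in 9 of them with an interval above 0. In PT-like cells the median gene was also higher in SP-ND. For this and the class counts that follow, the share of all genes with the same direction was not counted. All classes of a comparison come from the same pair of libraries, and the intervals cover counting error only. The ratio was largest in mesangial or smooth muscle cell-like cells (269 against 464 CPM, log2 ratio 0.79) and in TAL-like cells (1073 against 1688 CPM, 0.65). Of mesangial or smooth muscle cell-like cells, 174 of 400 in WT-ND and 66 of 287 in SP-ND came from a cluster with none of that class's markers among its 10 leading genes. Neat1 was at 250 and 320 CPM in that cluster and at 283 and 500 CPM in the other, for WT-ND and SP-ND. On HFD the same genotype comparison was above 0 in 3 of 13 classes, and 8 of 13 had an interval below 0. Malat1 was lower in WT-HFD than in WT-ND in 12 of 13 classes and lower in SP-HFD than in SP-ND in 10 of 13. Principal cell-like cells were the class with higher Malat1 on HFD in WT. Neat1 was higher in WT-HFD than in WT-ND in 7 of 13 classes, each with an interval above 0. It was higher in SP-HFD than in SP-ND in 2 of 13, principal cell-like and neutrophil-like cells, and 9 of 13 had an interval below 0. Neutrophil-like cells also had higher Neat1 in WT-HFD than in WT-ND.

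In principal cell-like cells both RNAs were higher on HFD in both genotypes. Neat1 was at 1393 CPM in WT-ND, 2978 CPM in WT-HFD, 1662 CPM in SP-ND and 2774 CPM in SP-HFD. Its log2 ratio was 1.10 (95% interval 1.03 to 1.16) in WT and 0.74 (0.68 to 0.79) in SP, against medians over all genes of -0.08 and -0.04. A ratio of 2-fold or more in the higher direction was reached by 2.33% of 3513 genes in WT, Neat1 among them, and by 1.24% of 3552 genes in SP, where Neat1 stayed below it. For Malat1 the log2 ratios were 0.50 (0.49 to 0.51) and 0.33 (0.32 to 0.34). Both ratios for both RNAs kept their direction in all 32 alternative values computed, which reuse the same libraries and so are no independent support. The 32 values leave out the split by depth given below, in which Malat1 in SP was not higher on HFD. No library was repeated, so whether diet or the single library carried the difference cannot be told apart.

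These cells formed 2 clusters. In the cluster led by Kcne1 and Npy6r, Neat1 was at 1351, 2616, 1639 and 2510 CPM in library order. In the cluster led by Aqp4 and Elf5 it was at 1530, 3603, 1729 and 3302 CPM. Neat1 was thus higher on HFD in each cluster and genotype. Malat1 in the first cluster was at 66614, 86486, 64641 and 81429 CPM, and in the second at 44337, 87307, 45329 and 62936 CPM. Among cells of 4000 to 8000 UMIs, Neat1 was at 1147 and 2861 CPM in WT-ND and WT-HFD and at 1698 and 2521 CPM in SP-ND and SP-HFD. In the same cells Malat1 was at 55834 and 95969 CPM in WT, but at 75731 and 73181 CPM in SP, so its difference in SP was not present at that depth. Among cells with 10% to 20% mitochondrial UMIs, Neat1 was at 1437 and 2908 CPM in WT and at 1575 and 2504 CPM in SP.

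Mat2a, which encodes the enzyme that makes S-adenosylmethionine and whose transcript is partly held in the nucleus with an unspliced intron, moved in the same direction. In principal cell-like cells it was at 157 CPM in WT-ND, 542 CPM in WT-HFD, 159 CPM in SP-ND and 452 CPM in SP-HFD, with log2 ratios of 1.79 in WT and 1.50 in SP. Both clusters showed it, with 123 and 464 CPM (WT) and 133 and 403 CPM (SP) in the first and 265 and 676 CPM (WT) and 239 and 548 CPM (SP) in the second. In PT-like cells Mat2a was at 255, 313, 286 and 277 CPM in library order, without a common direction for diet.

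Among other mRNAs known to carry detained introns, 11 of 11 in WT and 10 of 11 in SP had a ratio above 0 in principal cell-like cells, with medians of 0.52 and 0.31. Of all genes tested, 41.1% in WT and 44.5% in SP were above 0. Clk4, a kinase of splicing factors, went from 51.8 to 83.7 CPM in WT (log2 ratio 0.69, 0.34 to 1.05) and from 48.2 to 77.0 CPM in SP (0.68, 0.34 to 1.01). Ccnl2, a cyclin of nuclear speckles, went from 89.8 to 144.7 CPM in WT and from 103.4 to 131.7 CPM in SP. Nuclear speckle protein genes were above 0 in 15 of 16 (WT, median 0.33) and 12 of 16 (SP, 0.14). Paraspeckle protein genes, of which 11 of 15 reached 50 CPM in either library, were above 0 in 9 of 11 (WT, 0.35) and 6 of 11 (SP, 0.035). Hnrnph3, a paraspeckle protein, was at 66.9 and 139.6 CPM in WT and at 93.4 and 125.8 CPM in SP. Cytosolic ribosomal protein genes went the other way, above 0 in 6 of 79 in WT (median -0.31) and 13 of 79 in SP (-0.15). Dissociation stress genes were above 0 in 4 of 13 in WT (median -0.24) and in 12 of 13 in SP (0.36). The median of 7 principal cell markers was 0.01 in WT and 0.03 in SP. The part of any of these lists in the difference of Neat1 was not tested.

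**Figure D2:**
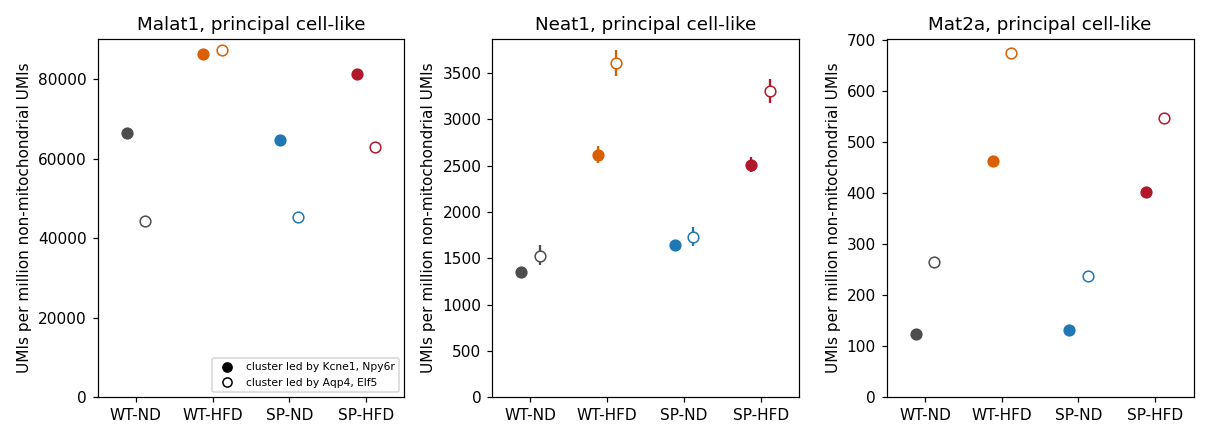
Malat1, Neat1 and Mat2a in principal cell-like cells, in CPM (scaled to non-mitochondrial UMIs) from 0, by library (x axis) and cluster (filled, led by Kcne1 and Npy6r, or open, led by Aqp4 and Elf5), with 95% Poisson intervals for Malat1 and Neat1. Each HFD library lies above the ND library of its genotype in each panel and cluster.

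Malat1 varied widely from cell to cell in PT-like and TAL-like cells, and part of them had a low share of it. In PT-like cells, those with under 1% of non-mitochondrial UMIs from Malat1 made up 21.7% (95% Clopper-Pearson interval 19.9 to 23.5) of 2018 cells in WT-ND, 32.8% (30.2 to 35.5) of 1201 cells in WT-HFD, 23.7% (20.9 to 26.7) of 877 cells in SP-ND and 33.0% (29.0 to 37.2) of 533 cells in SP-HFD. HFD exceeded ND by 11.2 percentage points (7.91 to 14.4) in WT and by 9.30 points (4.34 to 14.3) in SP, with intervals for counting error. The share in TAL-like cells was 16.4%, 31.0%, 15.7% and 31.0% in library order. The 1% limit was set after the distribution had been seen. Thinning each PT-like cell to 500 UMIs gave 21.5%, 32.4%, 24.1% and 31.4% in library order. The WT difference was 3.76 points with the unnamed clusters nearest to proximal tubule added, 5.06 points with a limit of 0.5% and 22.1 points with a limit of 2%, so its size depended on the limit and on which clusters were counted as PT-like.

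All 13 classes had a higher share of such cells in WT-HFD than in WT-ND, and all 13 in SP-HFD than in SP-ND. After thinning to 500 UMIs it was all 13 for WT and 11 of 13 for SP. Principal cell-like cells were then at 5.95% in SP-ND and 5.72% in SP-HFD, and neutrophil-like cells at 9.93% and 8.66%. For genotype the unthinned share was higher in SP in 9 of 13 classes on ND and in 11 of 13 on HFD, and after thinning in 8 and 9 of 13. Principal cell-like cells had the smallest shares, 3.42%, 6.32%, 5.91% and 5.97% in library order. Macrophage or dendritic cell-like cells had 26.2%, 35.9%, 30.8% and 40.0% in the same order. B cell-like cells reached 50.3% in SP-HFD, where their median depth of 9729 non-mitochondrial UMIs was far above the 1303 to 2048 of the other libraries. Clustered without integration, B cell-like cells fell into a cluster led by Iglc1, Igkc and Jchain and another led by Ighd and Ms4a1. The first held 40, 315, 1 and 122 cells in library order, and the second 56, 42, 37 and 55. The part of this mix in the Malat1 level and share of the class was not tested. Single libraries stand behind each diet and genotype, and the handling of 1 tissue sample could not be told apart from either.

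**Figure D3:**
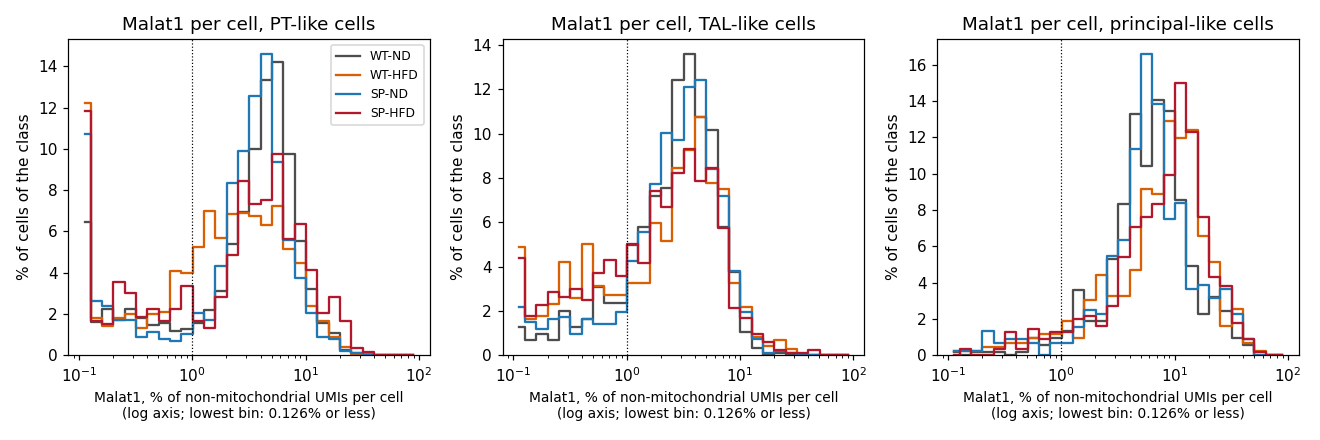
Percent of cells of a class (y axis) by Malat1 as percent of non-mitochondrial UMIs per cell (x axis, log scale, lowest bin open below) in PT-like, TAL-like and principal cell-like cells of each library, with a dotted line at 1%. Part of the PT-like and TAL-like cells lie below the line, a larger part in the HFD library of each genotype. The lowest bin pools all cells below its upper edge, so its height does not show a separate group. In PT-like cells it holds 6.44% and 12.2% of cells in WT-ND and WT-HFD, and 10.7% and 11.8% in SP-ND and SP-HFD.

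**Figure D4:**
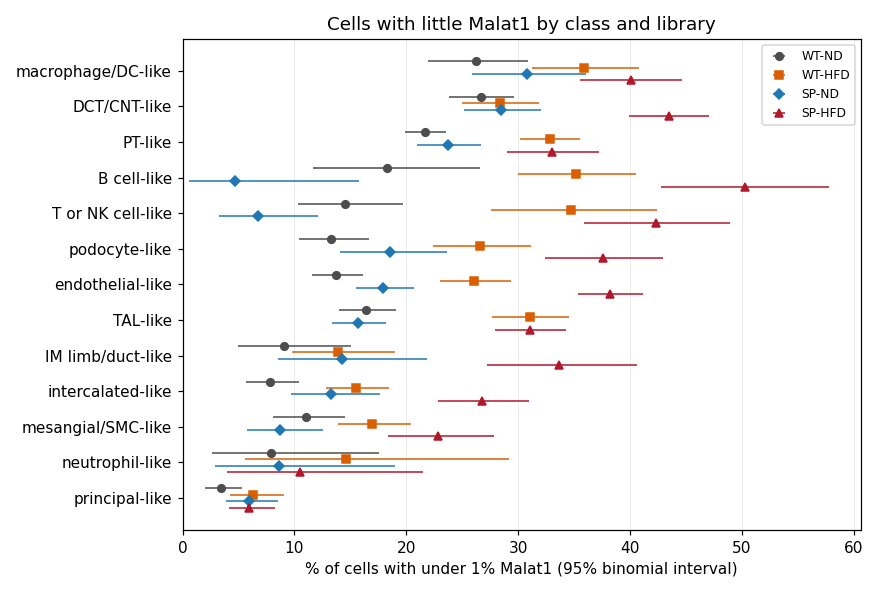
Percent of cells with under 1% Malat1 by class (rows) and library (colour and symbol), with 95% binomial intervals. Without thinning, the HFD library lies to the right of the ND library of the same genotype in each of the 13 classes.

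Neat1 was scarce in the same cells. In PT-like cells with under 1% Malat1 it was at 92.9 CPM in WT-ND, 131 CPM in WT-HFD, 86.1 CPM in SP-ND and 208 CPM in SP-HFD. In the other PT-like cells it was at 757, 802, 993 and 996 CPM in the same order, and the ranges did not overlap. Of 43 groups of a class in a library with at least 20 low-Malat1 cells, Neat1 was lower in 43, with a median ratio of 0.295 (range 0.0867 to 0.925). The summed mRNAs with detained introns were lower in 43 of 43 as well, with a median ratio of 0.687. The share of all genes lower in these cells was not counted, so neither count sets these RNAs apart. Some groups held few Neat1 UMIs, down to 6 in low-Malat1 mesangial or smooth muscle cell-like cells of WT-ND. Markers of the cell's own class were lower in 26 of 43, with a median ratio of 0.966 (range 0.361 to 1.67). In PT-like cells the low-Malat1 cells had a median of 4860 to 5906 UMIs and 27.5% to 36.5% mitochondrial UMIs, against 9978 to 16940 UMIs and 31.6% to 39.6% in the others. Depth had no common direction over classes. Low-Malat1 macrophage or dendritic cell-like cells were deeper in each library, with medians of 2345 to 5605 UMIs against 2221 to 3513 in the others. The part of depth in the lower Neat1 of low-Malat1 cells was not tested.

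The last question was how both RNAs ran with the mitochondrial share of a droplet. Over all barcodes, pooled Malat1 with under 10% mitochondrial UMIs was at 32723 CPM in WT-ND, 25384 CPM in WT-HFD, 29308 CPM in SP-ND and 21815 CPM in SP-HFD. At 70% to 80% it was highest, at 83675, 99459, 90058 and 108039 CPM in the same order. At 90% or more it was at 21443, 28108, 32534 and 37423 CPM. All 4 libraries shared this rise and fall. Neat1 went from 638, 649, 808 and 669 CPM below 10% to 1518, 1858, 2338 and 2027 CPM at 70% to 80% and back to 638, 866, 1326 and 999 CPM at 90% or more.

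The pooled values rested on part of the barcodes. At 70% to 80% mitochondrial UMIs, 10% or more Malat1 was found in 28.9%, 33.0%, 37.3% and 46.7% of barcodes in library order. The median barcode there was at 46858, 31994, 75070 and 89524 CPM. Among barcodes of 80% or more mitochondrial UMIs, 6.94% to 14.7% had 10% or more Malat1 and 61.9% to 70.5% had under 2.5%. The first group held Neat1 at 2604 to 4049 CPM and other nuclear-retained noncoding RNAs at 1122 to 1363 CPM in sum. The second held Neat1 at 297 to 500 CPM and the other noncoding RNAs at 137 to 174 CPM. Summed PT markers were 12800 to 15707 CPM in the first group and 6183 to 12224 CPM in the second. TAL markers went the other way, with 1290 to 2027 CPM in the first and 3087 to 5551 CPM in the second, and so did endothelial markers, with 19.1 to 56.2 and 72.2 to 129 CPM. The part of this difference in cell mix was not tested. Barcodes without a Malat1 UMI made up only 0.447% to 0.581% of those at 80% to 90% mitochondrial UMIs, and 0.785% to 1.21% at 90% or more. The limit of 2.5% thus did not mark barcodes without Malat1, and the median kept cell held 18617 to 27626 CPM.

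Kept PT-like cells end at 50% mitochondrial UMIs, so the peak at 70% to 80% and the later fall could not be seen in them. Up to 50%, pooled Malat1 over all barcodes was lowest below 10% and highest at 40% to 50% in each library. Within the kept PT-like cells the lowest level lay elsewhere. Malat1 was lowest at 20% to 30% mitochondrial UMIs, with 31988 CPM in WT-ND, 26004 CPM in WT-HFD, 29194 CPM in SP-ND and 26976 CPM in SP-HFD, and higher at 40% to 50%, with 51760, 54609, 40438 and 58421 CPM. Neat1 followed, from 544, 514, 677 and 532 CPM to 856, 851, 1023 and 1073 CPM. Over all barcodes, depth went with Malat1 less regularly, and the deepest bin, 32000 to 64000 UMIs, had 24222 to 31673 CPM.

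**Figure D5:**
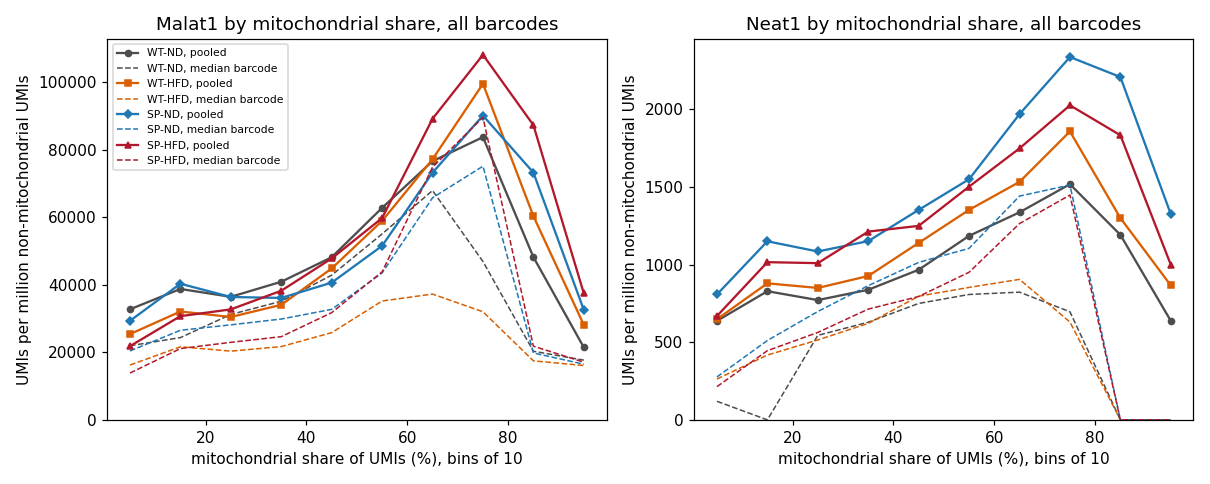
Malat1 (left) and Neat1 (right) in CPM (scaled to non-mitochondrial UMIs) from 0, by mitochondrial share of UMIs in bins of 10 percentage points, over all barcodes of each library (colour), pooled (solid, points) and for the median barcode (dashed). Pooled values peak at 70% to 80% in each library, while the median barcode falls to a low level above 80%.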

How the data were processed

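Single-cell suspensions of whole kidney were run on 10x Genomics 3′ chemistry (v3.1). The authors deposited raw UMI counts per gene and barcode for each library, aligned to mm10 with Cell Ranger (version 2.1.1 per the processing notes, while the matrix headers name 6.1.2). All 4 matrices were used.

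Barcodes with 200 to 5000 genes and under 50% mitochondrial UMIs were kept, and likely doublets, 0.8% for each 1000 cells by highest score, were taken out. Cells were integrated (CCA) and clustered with Seurat 5.3.0, with 1 fixed linear algebra kernel because rounding alone moved clusters. Malat1, Neat1, Mat2a and the genes of the lists, other than ribosomal protein genes and cell markers, were left out of the clustering features. Clusters were named from fixed markers by thresholds set after clusters were seen. Of each member, pooled UMIs were divided by non-mitochondrial UMIs. Intervals are exact Poisson, binomial or Clopper-Pearson at 95%. Class contrasts used edgeR 4.0.16 (glmQLFit, library as a term, TMM, adjusted p under 0.05), with DESeq2 1.42.0 as an alternative. The ratio intervals, the expected detection after thinning, the correlation ranking and the edgeR test were tried on simulated data, and the other steps were not. Genes named are both members, the 5 most correlated with each, and genes of lists. The members, lists and comparisons were chosen with earlier results of these data known.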

Additional observations from a re-analysis of the deposited data

Results flagged for a closer look

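Barcodes with 50% or more mitochondrial UMIs, which the study's limit leaves out of all comparisons, held both RNAs at pooled levels above those of kept cells. Malat1 was at 66736 CPM in WT-ND, 69099 CPM in WT-HFD, 65269 CPM in SP-ND and 78663 CPM in SP-HFD. Neat1 was at 1267 CPM in WT-ND, 1456 CPM in WT-HFD, 1867 CPM in SP-ND and 1678 CPM in SP-HFD. The median barcode was far lower, at 20619 to 31785 CPM of Malat1.

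An unnamed cluster of 2960 cells, whose leading genes include globin genes and the noncoding RNAs Snhg11 and Gm26917, had the highest Malat1 of the unnamed clusters present in all 4 libraries and enters no comparison. Malat1 was at 82746 CPM in WT-ND, 83346 CPM in WT-HFD, 86169 CPM in SP-ND and 167824 CPM in SP-HFD. Neat1 was at 1424 CPM in WT-ND, 1747 CPM in WT-HFD, 2591 CPM in SP-ND and 3779 CPM in SP-HFD. The median cell was at 24345, 33121, 15712 and 111483 CPM of Malat1 in the same order, at a median depth of 899 UMIs over the libraries. For Malat1, pooled and in the median cell, the SP-HFD library lay far above the other 3.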

How the results depend on the processing

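With 1 library per group differences between libraries have no replicate error, and counting limits Neat1 in small classes, with 19 UMIs in 43 B cell-like cells of SP-ND. No paired analysis of diet or genotype was possible because each group has 1 library, while the class contrasts had library as a term. Of 72 alternative values of the class contrasts, 65 gave the same call. The Neat1 contrast with TAL-like cells ranged from -0.38 to -0.18 without each library, and was not called without WT-ND, WT-HFD or SP-ND, without integration (0.036) or with the clustering repeated (-0.20). The Neat1 contrast with DCT-like cells was called without scaling (-0.42), turned to 0.13 without integration, and ranged from -0.15 to -0.03 without each library. Without integration, the PT-like sums of WT-HFD and SP-HFD held only 71 and 41 cells. The causes were not tested.

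For PT-like cells, ratios are given in the order diet in WT, diet in SP, genotype on ND and genotype on HFD where a value moved. With all UMIs as denominator Malat1 was at -0.14, 0.21 and -0.27 (the first 3 comparisons), and Neat1 at -0.019 (diet in SP) and 0.32 (genotype on ND). With a mitochondrial limit of 30% Malat1 was at -0.25, -0.23, 0.037 and 0.054, and Neat1 at -0.38 (diet in SP), 0.58 and 0.22 (genotype on ND and HFD). With 1.6% doublets per 1000 cells Malat1 was at 0.094 (diet in SP), -0.19 and 0.060 (genotype on ND and HFD), and Neat1 at 0.036 (diet in WT). Without integration, 71 and 41 HFD cells were PT-like, and an unnamed cluster nearest to proximal tubule held 851 cells of WT-HFD and 467 of SP-HFD. Malat1 was then at 0.62, 0.63, -0.10 and -0.092, and Neat1 at 1.33, 0.21 (diet in WT and SP) and -0.67 (genotype on HFD). As a mean over cells Malat1 was at -0.41, 0.32, -0.26 and 0.47, and Neat1 at -0.27, -0.025 (diet in WT and SP) and 0.62 (genotype on HFD).

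The remaining alternatives were chosen after seeing the data. The clustering was repeated with another linear algebra kernel (OpenBLAS), which differs by rounding alone. The clusters of both runs had an adjusted Rand index of 0.777, and 90.1% of PT-like cells and 96.6% to 100% of each other class kept their name. Malat1 in PT-like cells was then at -0.082, 0.044, -0.10 and 0.027, and Neat1 at 0.12 (diet in WT), 0.46 and 0.19 (genotype on ND and HFD). With the unnamed clusters nearest to proximal tubule added, Malat1 was at -0.31, 0.019, -0.077 and 0.25, and Neat1 at 0.057 (diet in WT). Relative to the median gene Malat1 was at -0.17, 0.20, -0.33 and 0.033, and Neat1 at -0.033 (diet in SP), 0.25 and 0.25 (genotype on ND and HFD). The difference in low-Malat1 PT-like cells in WT was 5.06 points with a limit of 0.5%, 22.1 points with a limit of 2%, 7.14 points with a mitochondrial limit of 30%, 16.8 points without integration and 3.76 points with those clusters added. In SP it was 4.31 points with a limit of 0.5% and 28.6 points without integration, and its direction held in all 18 values of both genotypes. The values without integration rest on 71 PT-like cells of WT-HFD and 41 of SP-HFD.

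For principal cell-like cells Malat1 in WT was at 0.48 (all UMIs), 0.51 (30% limit), 0.52 (at least 1000 UMIs), 0.52 (1.6% doublets), 0.54 (no integration), 0.34 (mean over cells) and 0.58 (relative to the median gene). In SP it was at 0.35 (all UMIs), 0.21 (30% limit), 0.35 (no integration), 0.27 (mean over cells), 0.35 (clustering repeated) and 0.37 (relative to the median gene). Neat1 was at 0.82 in WT and 0.50 in SP as a mean over cells, and at 1.18 in WT relative to the median gene. Thinning to 250 UMIs lowered all 8 detection shares of Neat1, which drawing fewer UMIs brings about by itself.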
